A study of Homo sapiens with 6 samples.

Results

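The 40 genes described here encode proteins of homologous recombination (14 genes), the Fanconi anaemia pathway (11), DNA end joining (6) and break sensing with the damage checkpoint (9). They were chosen by function and found by symbol, all 40 among the 23059 genes of the deposited tables. The samples were HCC-LM3 cells, an established human hepatocellular carcinoma line, given apigenin, a flavone found in plants, or DMSO, the solvent control. Each group had 3 RNA-seq libraries that the labels name biological replicates, from this cell line alone; no dose or treatment time is given in the sources used here. The 6 libraries held 33882145 to 37983636 counts. The apigenin libraries differed more from each other (8.81 to 27.5 per pair for chi-square divided by its degrees of freedom) than the DMSO libraries (4.35 to 5.15).

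A double-strand break is bound by the MRE11-RAD50-NBN complex, which recruits the kinase ATM, while single-stranded DNA at stalled forks recruits ATR. ATM acts through CHEK2 and ATR through CHEK1. MDC1 and TP53BP1 gather on the chromatin around the break. The ends are then either cut back and repaired from the sister chromatid by BRCA1, BRCA2 and their partners, or rejoined by the Ku proteins, DNA-PKcs and ligase IV. The Fanconi anaemia proteins open this route at crosslinked DNA: a core complex of several subunits attaches ubiquitin to the FANCD2-FANCI clamp. Many of these genes are transcribed more in S and G2 phase than in G1, and liver tumour lines divide more often than hepatocytes.

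With apigenin 5 of the 40 genes fell and 0 rose at an adjusted p under 0.05 in edgeR's quasi-likelihood test over 15173 genes, of which 4.22% fell and 2.76% rose. The 5 were the kinase genes ATM and PRKDC, the scaffold gene MDC1, the break-end tether RAD50 and the clamp subunit FANCD2, each by 15.1 to 26.1%. By pathway, 3 of 9 sensing and checkpoint genes fell, 1 of 6 end-joining genes, 1 of 11 Fanconi genes and 0 of 14 recombination genes. The median log2 fold change, apigenin over DMSO, was -0.18 for the checkpoint genes, -0.06 for the recombination genes, -0.01 for the end-joining genes and 0.00 for the Fanconi genes, beside 0.00 over all tested genes. The 3 apigenin libraries lay below all 3 DMSO libraries for 12 of the 40 genes, against 15.0% of all tested genes, and above them for 3, against 14.4%. At an unadjusted p under 0.05 there were 13 of the 40 in either direction, 2 of them recombination genes, against 24.4% of all tested genes. With DESeq2 7 fell, the same 5 with BRCA1 and POLQ, and 0 rose, against 7.37% and 5.34% of the 12327 genes to which it gave an adjusted p. In RNA from bulk cultures, fewer cells of a kind (such as cells in S or G2 phase) and less RNA per cell cannot be told apart.

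The called genes were mostly long, and the fold change of all genes ran with gene length in these libraries. The slope of log2 level on log2 gene length, relative to the DMSO mean, was 0.001, -0.005 and 0.003 per doubling in the DMSO libraries and -0.071, -0.021 and -0.147 in apigenin 1, 2 and 3. Length here is the fixed number of nucleotides per gene that the deposited FPKM (reads scaled to gene length and library total) imply. It is not the span of the gene on the chromosome. A second fit therefore removed a smooth trend on length from each library. In it 3 of the 40 genes fell (ATM, PRKDC and FANCD2) and 0 rose, against 5.38% and 4.63% of all tested genes. The split of all calls moved from 641 lower and 419 higher to 816 lower and 702 higher. Values from this fit are called length-adjusted below, and what made the slopes differ was not tested.

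All 40 genes were above the filter on low counts, with at least 210 reads and 1 CPM (counts per 1000000 of the library total, scaled by TMM, the trimmed mean of M-values) in every library. On the FPKM scale, which divides by the length described above, their median in DMSO was 8.21 beside 4.87 over all tested genes. Ranks between genes on this scale depend on that length. Whether it is the length of the transcripts present was not tested. The Ku gene XRCC6 was highest at 133 ± 5.39 FPKM (SD, n = 3). Its partner XRCC5 followed at 75.3 ± 1.66 and PRKDC, which encodes DNA-PKcs, the kinase they recruit, at 72.6 ± 0.855, just under XRCC5 in each DMSO library. NBN, the regulatory subunit of the MRE11 complex, came next at 40.1 ± 2.16. FANCB, a core complex subunit, was lowest at 1.19 ± 0.222, near BRCA2, a core mediator of recombination, at 1.46 ± 0.25, which was above FANCB in all 6 libraries. LIG4, the ligase of end joining, stood at 2.0 ± 0.107. In CPM, which are not divided by length, the DMSO mean was highest for PRKDC (977) and lowest for FANCE (6.89). LIG4 was at 9.3 and FANCB at 9.35 CPM.

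**Figure D1:**
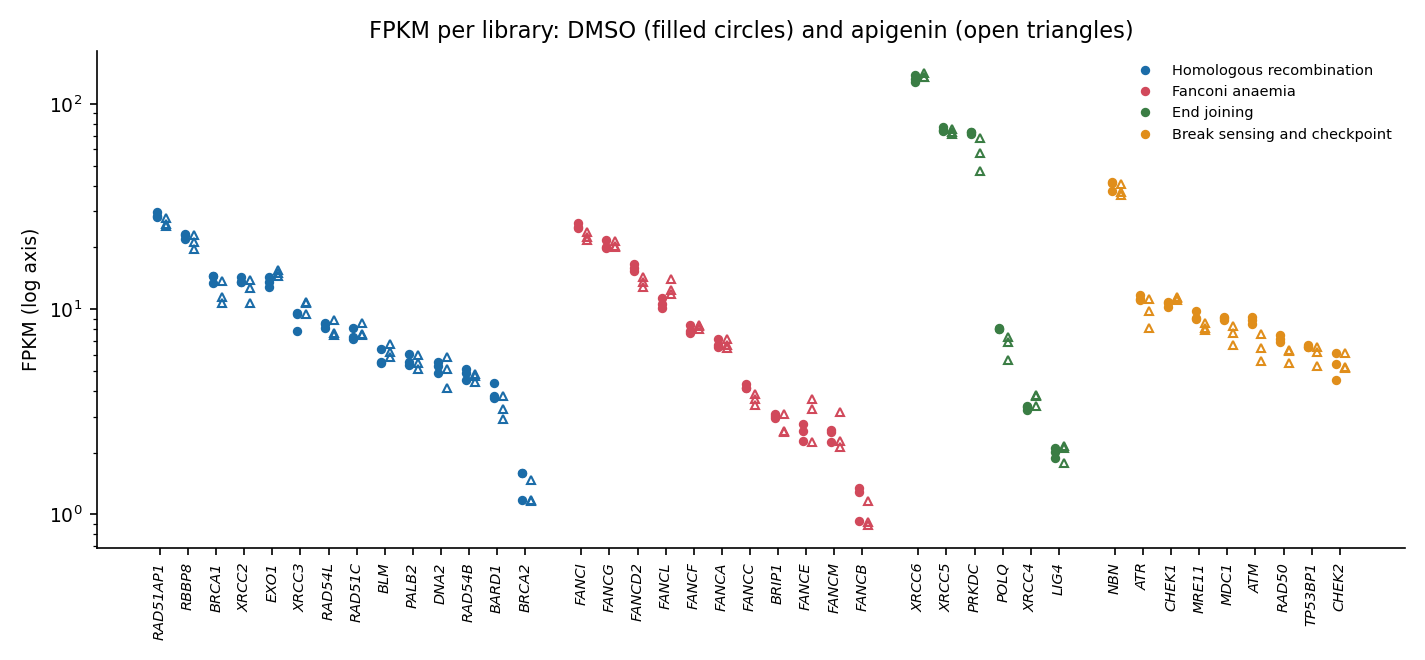
FPKM of the 40 genes on a log axis, ordered within each pathway by the DMSO mean; filled circles are the 3 DMSO and open triangles the 3 apigenin libraries. The levels span from about FANCB (DMSO mean 1.19) to XRCC6 (133), and for most genes the groups lie close together on this scale.

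Hepatocyte markers were present at uneven levels, and of 14 listed 13 were tested. With apigenin 4 of the 13 fell, ALB and TF among them, and 0 rose, against 4.22% and 2.76% of all tested genes. Length-adjusted, 7 of the 13 fell, against 5.38% of all tested genes, and TF was not among the 7. In DMSO KRT18 was at 855 ± 5.99, TF at 341 ± 8.97, ALB at 123 ± 3.3 and HNF4A at 76.0 ± 3.45 CPM, AFP at 7.67 ± 0.441, and APOA2 had 0 or 1 reads per library. The blood cell genes PTPRC and CD3E had at most 9 and 1 reads, and the fibroblast gene COL1A2 at most 6; of 10 listed markers of such cells 4 were tested and 0 called. CD68 (85.1 to 93.8 CPM) and PECAM1 (42.6 to 53.2 CPM) were detected in all 6.

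The promoters of the called genes are shown as a description, and whether these genes share regulation was not tested. The windows are from RefSeq (GRCh38.p14), 250 bases before to 50 after the gene start, for 4 called genes. PRKDC, the other called gene, had no window. Capitals mark matches to 3 motifs searched on both strands: the E2F site (TTTCCCGC, TTTGGCGC, TTTCGCGC or TTTGCCGC), the CHR element (TTTGAA or TTCGAA) and the CCAAT box (CCAAT). A match on the other strand appears as its reverse complement.
ATM: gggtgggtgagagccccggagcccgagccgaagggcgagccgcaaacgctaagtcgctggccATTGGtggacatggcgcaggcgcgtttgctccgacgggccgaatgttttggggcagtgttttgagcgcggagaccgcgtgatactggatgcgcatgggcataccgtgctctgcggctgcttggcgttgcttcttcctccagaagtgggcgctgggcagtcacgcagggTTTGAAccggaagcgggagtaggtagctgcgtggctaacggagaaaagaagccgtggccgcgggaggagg
FANCD2: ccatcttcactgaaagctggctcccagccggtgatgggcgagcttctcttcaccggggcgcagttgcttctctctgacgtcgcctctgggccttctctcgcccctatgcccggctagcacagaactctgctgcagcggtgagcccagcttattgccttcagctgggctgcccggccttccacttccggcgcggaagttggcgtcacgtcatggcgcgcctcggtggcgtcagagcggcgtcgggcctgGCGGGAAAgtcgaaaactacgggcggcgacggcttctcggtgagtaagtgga
RAD50: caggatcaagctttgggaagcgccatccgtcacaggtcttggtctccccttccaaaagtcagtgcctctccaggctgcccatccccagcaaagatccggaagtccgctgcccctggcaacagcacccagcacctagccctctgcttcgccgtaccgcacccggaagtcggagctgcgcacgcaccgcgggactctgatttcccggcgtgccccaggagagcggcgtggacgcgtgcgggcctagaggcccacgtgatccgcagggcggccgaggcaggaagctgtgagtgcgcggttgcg
MDC1: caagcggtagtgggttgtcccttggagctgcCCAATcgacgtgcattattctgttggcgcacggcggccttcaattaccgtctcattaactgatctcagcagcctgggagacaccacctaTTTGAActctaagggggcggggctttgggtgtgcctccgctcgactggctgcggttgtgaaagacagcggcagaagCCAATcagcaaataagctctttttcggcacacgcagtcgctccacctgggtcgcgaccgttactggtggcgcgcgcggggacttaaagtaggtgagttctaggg
The ATM window is chr11:108222817-108223116 on the plus strand, with a CHR match at -20 (its first base, counted from the start) and a reversed CCAAT box at -188. The FANCD2 window, chr3:10026187-10026486 on the plus strand, has 1 E2F match, reversed, that begins at -2. The RAD50 window, chr5:132556727-132557026 on the plus strand, held none of the letters searched, and that of MDC1, chr6:30717232-30717531 on the minus strand, held a CHR match at -130 and CCAAT boxes at -219 and -54.

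Of the 40 genes 34 had a window in the table. An E2F match was in 6 of the 34 (17.6%), against 3.33% of 27305 windows of all genes and 5.16% of 11839 of tested genes. The 6 were EXO1, XRCC2, FANCA, FANCC, FANCD2 and XRCC6, and 1 of them fell. CHR matches were in 14.7% against 16.6% and 11.5%, and CCAAT boxes in 50.0% against 35.7% and 36.2%. Not every window is at the outer end of its gene. Those of RBBP8, MRE11 and CHEK1, for example, are at a start within the gene's span. A match is a run of letters, and binding was not measured.

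ATM, the kinase that opens the response to double-strand breaks, fell most in percent. Its gene lies on chromosome 11, 108223067 to 108369102 (GRCh38). The length that its FPKM imply, 15408 nucleotides, is shorter than that span and is the longest such length of the 40. It was at 131, 136 and 142 CPM in DMSO 1, 2 and 3 and at 99.4, 115 and 87.7 in apigenin 1, 2 and 3. All 3 apigenin libraries were below the lowest DMSO library, apigenin 2 nearest to it. The mean went from 136 ± 5.62 to 101 ± 13.9 CPM (n = 3 each), a log2 fold change of -0.44 ± 0.0839 (SE; 95% interval -0.62 to -0.26; edgeR adjusted p = 0.00746). Length-adjusted it was -0.25 ± 0.0505 (edgeR adjusted p = 0.00295), with -0.28, -0.18 and -0.29 in the 3 apigenin libraries against the DMSO mean. Without DMSO 2, DMSO 3 or apigenin 1 the call of the first fit was lost (edgeR adjusted p = 0.0511, 0.0612 and 0.0605), and length-adjusted it held without any 1 of the 6 libraries (edgeR adjusted p up to 0.0428).

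ATR, the kinase for single-stranded DNA, was at 96.2, 91.4 and 92.2 CPM in DMSO and at 80.6, 91.0 and 67.4 in apigenin. The groups did not overlap, though apigenin 2 lay just under DMSO 2. The log2 fold change was -0.23 ± 0.0889 (95% interval -0.42 to -0.04; edgeR adjusted p = 0.133), and -0.12 length-adjusted. ATR passed the threshold with no filter on low counts (-0.23, edgeR adjusted p = 0.0222). Without apigenin 2 it passed in the first fit (-0.34, edgeR adjusted p = 0.00547) and length-adjusted (-0.18, edgeR adjusted p = 0.0425).

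Of their effector kinases, CHEK1 was at 55.1, 55.5 and 53.1 CPM in DMSO and 58.2, 56.7 and 59.9 in apigenin. Every apigenin library was above every DMSO library, by a small margin. The fold change, 0.09 ± 0.0641, did not pass (95% interval -0.04 to 0.23; edgeR adjusted p = 0.401). CHEK2 was at 13.4, 15.9 and 18.0 CPM in DMSO and 15.3, 15.1 and 18.2 in apigenin, so the groups overlapped (0.04 ± 0.124; interval -0.23 to 0.30). CHEK2 and FANCD2 have near-identical pseudogene copies, and the treatment of reads that match both is not stated, so their levels are uncertain.

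RAD50, the coiled-coil ATPase that tethers break ends (chromosome 5, 132556977 to 132646349), was at 61.8, 59.0 and 57.6 CPM in DMSO and 52.5, 51.1 and 46.0 in apigenin. All apigenin libraries were lower. It fell by 16.0%, from 59.4 ± 2.14 to 49.9 ± 3.4 CPM (log2 fold change -0.25 ± 0.0714, edgeR adjusted p = 0.0486), and was not called length-adjusted (-0.14, edgeR adjusted p = 0.151). The call was also lost without any library other than apigenin 2, with an edgeR adjusted p from 0.0561 without apigenin 3 to 0.215 without DMSO 1. MRE11, the nuclease of the same complex, stood at -0.18 ± 0.0658 (edgeR adjusted p = 0.118) with no overlap between groups, and NBN at -0.08 ± 0.0625 with overlap. So 1 of the 3 subunits passed, and whether the subunits differed from each other was not tested.

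MDC1, which binds phosphorylated histone H2AX and holds ATM at the break (chromosome 6, 30699807 to 30717281), was at 75.0, 71.7 and 74.4 CPM in DMSO and 62.1, 66.7 and 55.3 in apigenin. No apigenin library reached the DMSO range. It fell by 16.7%, from 73.7 ± 1.76 to 61.4 ± 5.71 CPM (-0.26 ± 0.0737, edgeR adjusted p = 0.046), but was not called length-adjusted (-0.16, edgeR adjusted p = 0.0752), nor without DMSO 1, 2 or 3 or apigenin 1 (edgeR adjusted p from 0.128 to 0.19). TP53BP1, the other chromatin scaffold, which shields ends from resection, stood at -0.14 ± 0.0738 (edgeR adjusted p = 0.282) and at 0.02 length-adjusted. Its apigenin libraries were all below its DMSO libraries in CPM.

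**Figure D2:**
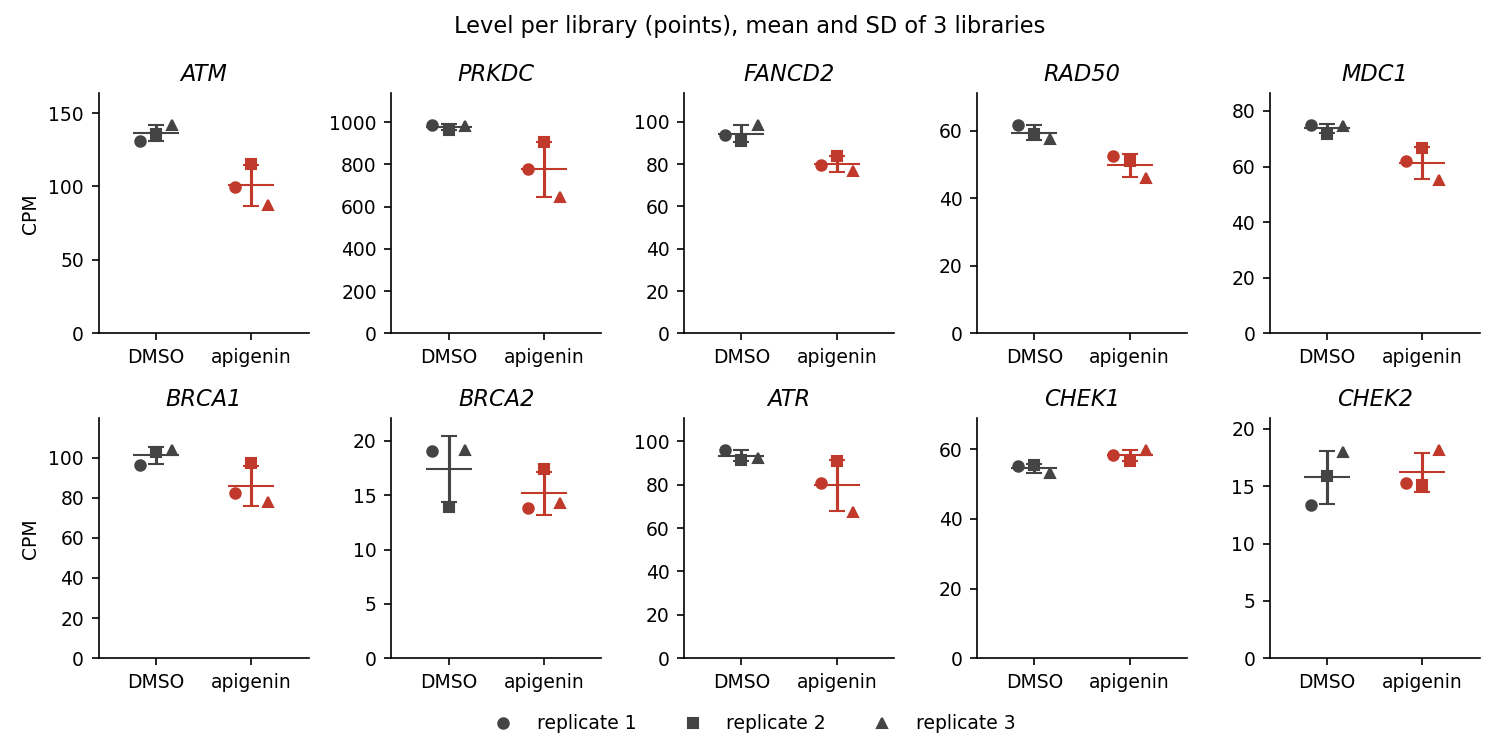
CPM per library for the 5 genes that fell (top) and 5 others (bottom), with axes from 0; points are libraries, shaped by replicate number, and bars are the mean and SD of 3. In the top row all apigenin points lie below all DMSO points, and apigenin 2 is the highest of the 3 except for RAD50; in the bottom row ATR lies lower and CHEK1 higher without overlap, while the other 3 overlap.

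The first step of recombination is resection of the ends. RBBP8 (CtIP), which starts it with MRE11, was at -0.10 ± 0.0669. EXO1, the main long-range nuclease, was at 49.1, 52.1 and 55.5 CPM in DMSO and 57.3, 59.4 and 56.5 in apigenin, higher without overlap, yet not called (0.15 ± 0.0692, edgeR adjusted p = 0.216). DNA2, the other nuclease, was at -0.06 ± 0.11, and BLM, the helicase that works with both, at 0.11 ± 0.0835. None of the 4 passed in any of the 24 alternative fits.

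BRCA1, the ubiquitin ligase that promotes resection and recruits PALB2, was at 96.2, 103 and 104 CPM in DMSO and 82.4, 97.3 and 77.8 in apigenin. Apigenin 1 and 3 were below all DMSO libraries, and apigenin 2 was within their range. The log2 fold change of -0.24 ± 0.0793 (95% interval -0.41 to -0.07) missed the threshold (edgeR adjusted p = 0.0863), and length-adjusted it was -0.15 (edgeR adjusted p = 0.111). BRCA1 passed with DESeq2 (adjusted p = 0.0463), with no filter on low counts (0.0146 in edgeR) and without apigenin 2 (0.00202 in edgeR). BARD1, its obligate partner, had the same log2 fold change with a larger error (-0.24 ± 0.108, edgeR adjusted p = 0.184).

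PALB2, which links BRCA1 to BRCA2, was at -0.03 ± 0.0863. BRCA2 encodes the largest protein of this route and had an FPKM-implied length of 11954 nucleotides. It was at 19.1, 13.9 and 19.2 CPM in DMSO and 13.8, 17.4 and 14.3 in apigenin. DMSO 2 stood with the apigenin libraries, so the groups overlapped. Its fold change was -0.20 ± 0.135 (interval -0.49 to 0.09; edgeR adjusted p = 0.398), and -0.04 length-adjusted.

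The remaining recombination genes act in strand exchange. RAD51C was at 0.07 ± 0.0881, XRCC3 at 0.21 ± 0.0991 and XRCC2 at -0.15 ± 0.0826 (edgeR adjusted p of 0.673, 0.216 and 0.296). XRCC3 overlaps KLC1 (93.3 CPM), and without stated strand reads in the overlap may be lost or counted for the wrong gene. The same holds for RAD54L with LRRC41 (46.8 CPM), TP53BP1 with TUBGCP4 (41.6), FANCA with ZNF276 (21.7) and MRE11 with ANKRD49 (13.1). RAD51AP1, which stimulates strand invasion, was at 64.5, 60.8 and 62.1 CPM in DMSO and 56.5, 59.6 and 55.8 in apigenin. It was lower in every apigenin library and near the threshold only length-adjusted (-0.20 ± 0.0641, edgeR adjusted p = 0.0514, against -0.12 and 0.261). It passed in 3 of the 24 alternatives, all length-adjusted: with the replicate block (edgeR adjusted p = 0.0341), with GC content (0.0412) and without apigenin 2 (0.0068). With an FPKM-implied length of 2163 nucleotides it is the shortest of the 40, so its estimate moved away from 0 when the trend was removed. The motor proteins RAD54L and RAD54B were both at -0.06, with errors of 0.0869 and 0.0738.

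In the Fanconi group, FANCD2 (chromosome 3, 10026437 to 10101932), the clamp subunit whose ubiquitin mark starts crosslink repair, was at 93.8, 90.8 and 98.6 CPM in DMSO and 79.8, 83.9 and 76.6 in apigenin. The apigenin libraries lay close together and below DMSO. It fell by 15.1%, from 94.4 ± 3.9 to 80.1 ± 3.69 CPM (-0.24 ± 0.0635, edgeR adjusted p = 0.04), and length-adjusted it fell by 0.18 ± 0.0516 on the log2 scale (edgeR adjusted p = 0.0297). Length-adjusted, the 3 apigenin libraries stood at -0.19, -0.16 and -0.19. Without DMSO 1, 2 or 3 or apigenin 1 the call was lost in both fits (edgeR adjusted p from 0.101 to 0.204, and from 0.0532 to 0.186 length-adjusted).

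FANCI, the clamp's other subunit, was at 123, 121 and 129 CPM in DMSO and 107, 116 and 111 in apigenin, again with no overlap. It did not pass (-0.16 ± 0.0592, interval -0.29 to -0.03, edgeR adjusted p = 0.115). FANCI overlaps POLG, at 67.3 CPM.

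None of the 7 core complex genes besides FANCM passed in edgeR, and their estimates took both signs. FANCL, the ubiquitin ligase of the complex, was at 23.3, 22.2 and 25.0 CPM in DMSO and 27.4, 26.1 and 31.3 in apigenin, above DMSO in every library. At 0.27 ± 0.0922 it missed the threshold (interval 0.07 to 0.47, edgeR adjusted p = 0.093) and passed without apigenin 2 (0.32, edgeR adjusted p = 0.0279). It overlaps VRK2, at 64.5 CPM. FANCC was lower in every apigenin library (-0.21 ± 0.0734, edgeR adjusted p = 0.103) and at -0.07 length-adjusted. It overlaps AOPEP, at 40.6 CPM. FANCA (0.00 ± 0.0726), FANCG (0.00 ± 0.068) and FANCF (0.05 ± 0.0802) had intervals between -0.16 and 0.23. FANCE (0.27 ± 0.166) and FANCB (-0.26 ± 0.158) were thinly measured, at 6.89 and 9.35 CPM in DMSO. FANCM, the motor that anchors the complex, was at 0.05 ± 0.129, and BRIP1, the helicase that binds BRCA1, at -0.15 ± 0.0857, or 0.01 length-adjusted.

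Of the end-joining genes, PRKDC, which encodes the catalytic kinase DNA-PKcs and lies on chromosome 8, was at 988, 963 and 982 CPM in DMSO and 778, 908 and 646 in apigenin. The DMSO libraries lay close together, while the apigenin libraries spread widely, all below them. It fell by 20.5%, from 977 ± 13.4 to 777 ± 131 CPM (-0.33 ± 0.0886, edgeR adjusted p = 0.04). Length-adjusted it was -0.16 ± 0.0448 (edgeR adjusted p = 0.0252), with -0.17, -0.05 and -0.28 in apigenin 1, 2 and 3. Without apigenin 3 the log2 fold change of PRKDC was -0.21, and without apigenin 2 -0.46, both called in edgeR. Its call was lost without DMSO 1, 2 or 3 or apigenin 1, in both fits (edgeR adjusted p from 0.131 to 0.163, and from 0.0752 to 0.122 length-adjusted).

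The Ku genes, whose products load DNA-PKcs on the ends, did not pass. XRCC5 was at 252, 249 and 261 CPM in DMSO and 240, 244 and 258 in apigenin (-0.04 ± 0.0545, interval -0.15 to 0.08), and XRCC6 was at 0.05 ± 0.0552 (interval -0.07 to 0.17). Whether they differed from PRKDC was not tested. XRCC4, the scaffold of the ligase, was at 0.14 ± 0.109 and LIG4 at 0.01 ± 0.122.

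POLQ, the polymerase of microhomology-mediated joining, was at 70.5, 70.9 and 70.1 CPM in DMSO and 60.3, 63.8 and 50.3 in apigenin. All 3 apigenin libraries were lower than the tight DMSO values. The fold change of -0.28 ± 0.0814 missed the threshold narrowly (edgeR adjusted p = 0.0541) and was -0.16 length-adjusted (edgeR adjusted p = 0.0865). POLQ passed with DESeq2 (adjusted p = 0.0216), with no filter (0.00537 in edgeR) and without apigenin 2 (0.00521 in edgeR).

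**Figure D3:**
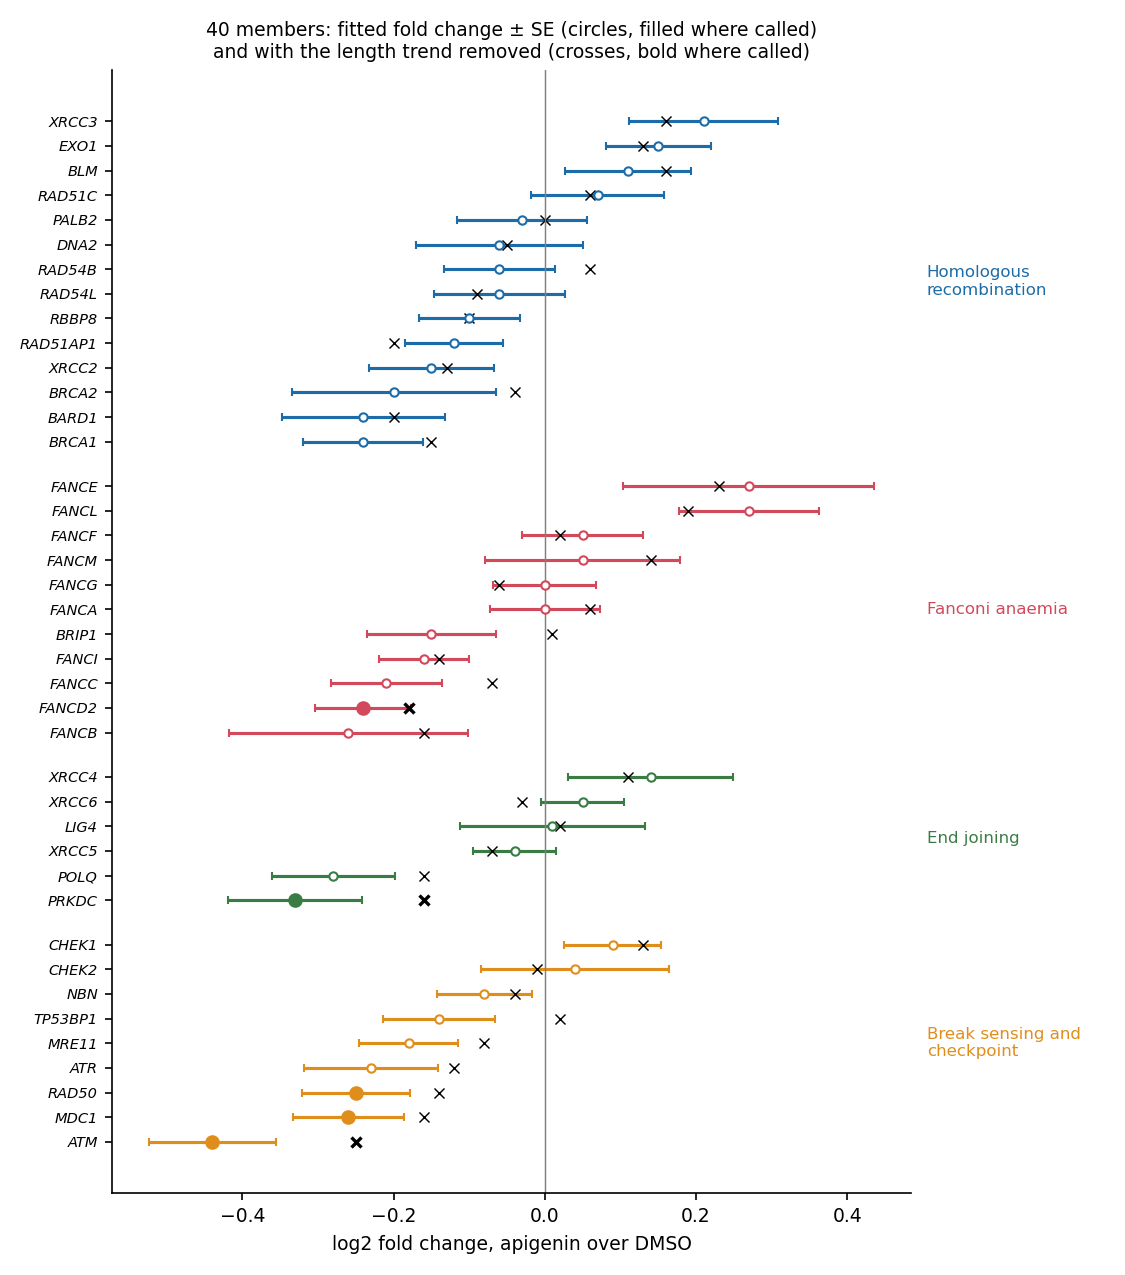
Log2 fold change, apigenin over DMSO, of the 40 genes by pathway; circles with bars are the estimate ± SE (filled where called) and crosses the length-adjusted estimate (bold where called). The 5 filled circles lie between -0.24 and -0.44, and their crosses lie nearer to 0.

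Among the 35 uncalled genes, 33 had a 95% interval within 1.5-fold in either direction, and the intervals ranged from -0.60 to 0.63 in all. Of the 40, 26 were never called in any of the 24 alternative fits.

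The relation to length held within the 40 genes. Their median length was 5208 nucleotides beside 3872 over all tested genes, and 15 of the 40 were among the longest 20.0% of tested genes (7092 nucleotides or more), as were 6 of the 9 checkpoint genes. Of those 15, 4 fell (26.7%, all but FANCD2 of the 5), against 11.0% of all 3035 genes of that length. The median log2 fold change of the 15 was -0.23, or -0.12 length-adjusted, beside -0.13 and 0.00 for all genes of that length. Across the 40 genes Spearman's rho between length and fold change was -0.71, and -0.34 length-adjusted; all points share the same 6 libraries, and over all 15173 genes rho was -0.36 and 0.02.

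**Figure D4:**
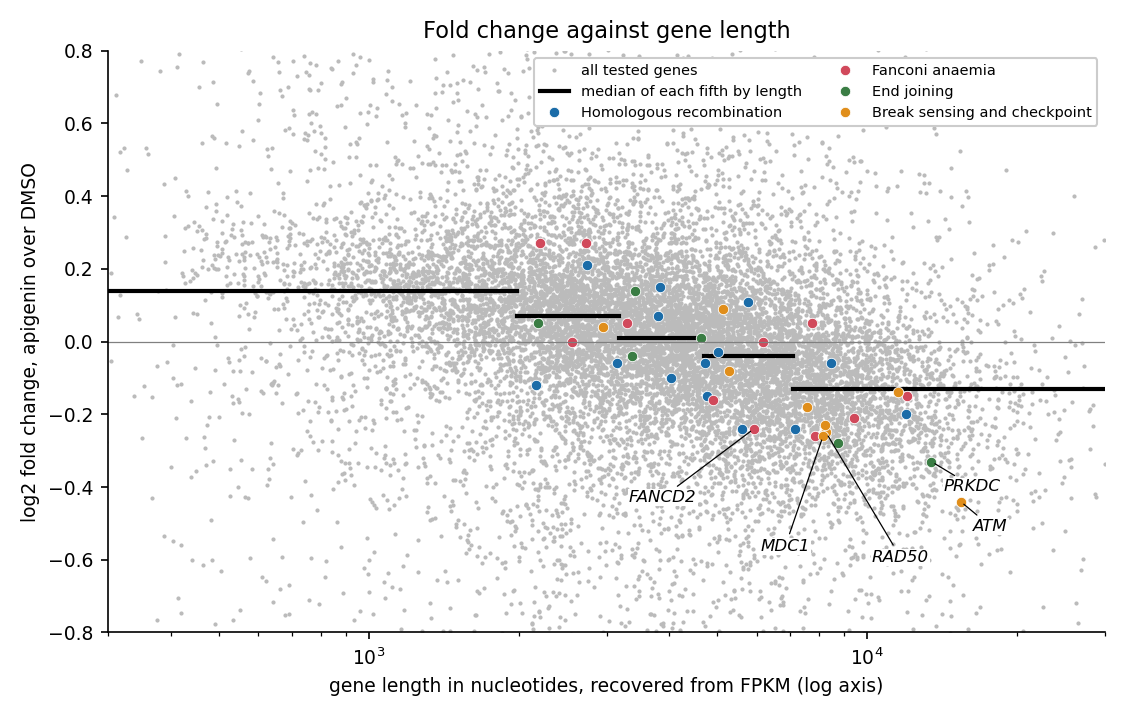
Log2 fold change against gene length (nucleotides, log axis; genes outside the drawn range are left out). Grey points are all tested genes and coloured points the 40 genes by pathway. Black lines are the median of all tested genes in 5 classes of equal size, from 0.14 in the shortest to -0.13 in the longest. ATM, PRKDC, RAD50 and MDC1, the called genes of the longest class, lie below its line.

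The apigenin libraries also differed from each other. Apigenin 3 was the lowest of the 3 for 26 of the 40 genes and apigenin 2 the highest for 25. The median of the 40 genes against the DMSO mean stood at -0.11, -0.01 and -0.15 for apigenin 1, 2 and 3, which is how the length slopes rank as well, and -0.07, 0.00 and -0.06 length-adjusted. Without apigenin 2, 12 of the 40 fell (the 5 above with BRCA1, BARD1, XRCC2, FANCI, BRIP1, POLQ and ATR) and FANCL rose. That fit called more of all genes too, 9.97% lower and 8.66% higher. Without DMSO 2, DMSO 3 or apigenin 1, 0 of the 40 were called, and without DMSO 1 only ATM. Those 4 fits called fewer of all genes too: 319 of 15548, 305 of 15602, 310 of 15610 and 260 of 15544, in that order.

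Of 89 further genes of the same pathways, all tested, 2 fell and 2 rose, against 4.22% and 2.76% of all tested genes. Their median was 0.06. TOPBP1, the activator of ATR, fell from 166 ± 1.74 to 140 ± 14.1 CPM (-0.25 ± 0.0692, edgeR adjusted p = 0.0431). BRCC3, the deubiquitinase of a BRCA1 complex, fell by 0.26 ± 0.0696 on the log2 scale (edgeR adjusted p = 0.0396). RECQL5, a helicase that restrains recombination, rose by 0.26 ± 0.068 (edgeR adjusted p = 0.0349), and CDC25B, the phosphatase that the checkpoint restrains, by 0.22 ± 0.0511 (edgeR adjusted p = 0.0198). In the first fit none of these 4 kept its call without DMSO 1, 2 or 3 or apigenin 1. Length-adjusted, 2 fell and 3 rose, against 5.38% and 4.63% of all tested genes. CLSPN, an adaptor of ATR and CHEK1, was among those that rose, at 0.24 ± 0.0651 (edgeR adjusted p = 0.0218). With DMSO 1, 2 or 3 or apigenin 1 left out of the length-adjusted fit, 0 fell and 2 rose each time, RECQL5 and CDC25B.

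Many of the 40 genes vary with the cell cycle, whose own genes were counted in the same way. Over all tested genes 4.22% fell and 2.76% rose, or 5.38% and 4.63% length-adjusted. Of 28 replication genes 1 fell (POLE, -0.33 ± 0.0689) and 1 rose (FEN1, 0.39 ± 0.0691), with a median of 0.01. Of 24 G2 and mitosis genes 3 fell (MKI67, -0.36 ± 0.0896; CENPF, -0.26 ± 0.072; FOXM1, -0.18 ± 0.0505) and 0 rose, with a median of 0.01. Of 16 targets of p53, which ATM and CHEK2 activate, TNFRSF10B fell (-0.30 ± 0.062) and 0 rose, with a median of 0.00, and CDKN1A stood at 0.38 ± 0.11 (edgeR adjusted p = 0.0553). Length-adjusted, 1 replication gene fell and 3 rose (CDC6 and CHAF1A besides FEN1), 3 G2 and mitosis genes fell (NUSAP1 but not CENPF) and 3 p53 targets fell (SESN2 and BTG2 besides TNFRSF10B). In the first fit, without DMSO 1, 2 or 3 or apigenin 1 the calls of POLE, MKI67, CENPF and FOXM1 were lost (edgeR adjusted p from 0.0515 to 0.204), and that of TNFRSF10B without any 1 DMSO library (from 0.059 to 0.0971). Length-adjusted, FOXM1 and TNFRSF10B kept their calls without any 1 of these libraries (edgeR adjusted p up to 0.0338). FOXM1 overlaps RHNO1 (42.4 CPM) and ITFG2 (26.7 CPM), and TNFRSF10B overlaps RHOBTB2 (36.6 CPM), so their reads may be miscounted. FEN1, which rose, kept its call in both fits without any 1 library (edgeR adjusted p up to 0.0467, and up to 0.00813 length-adjusted). MKI67 was at -0.23 in the first fit without apigenin 3. The part of the cell cycle in the results above was not tested.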

How the data were processed

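RNA of 3 DMSO and 3 apigenin samples of HCC-LM3 cells, grouped by their titles, was sequenced. The tools were fastp, HISAT2 and HTSeq and the build GRCh38 (hg38), per the submitters' processing notes, with no versions or strand setting stated. The authors deposited read counts per gene, not normalized, and FPKM. The deposited FPKM equal the count over a fixed length and the library total in 100% of genes (to 0.0001, relative), which gave the lengths. Positions are from RefSeq by symbol (40 of 40 matched).

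The groups were compared with edgeR 4.0.16 (R 4.3.3) quasi-likelihood tests on these counts, with library sizes scaled by TMM, edgeR's default filter (15173 genes) and Benjamini-Hochberg adjustment over all tested genes at 0.05. In the length-adjusted fit a lowess trend (span 0.3) of each library's log2 CPM (prior count 2) on log2 length entered as an offset. A 0 in a library allows up to 0.079 to 0.0885 CPM (3 counts, counting error only). Replicates differed by more than counting noise. The steps were tested on simulated data. Same-numbered libraries did not deviate together (correlations of -0.017, -0.019 and -0.048), so numbers were not treated as pairs.

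All 40 genes are named, with per-library values for those called, near the threshold or without overlap, except MRE11, FANCC and TP53BP1. Of the other pathway, cell cycle and p53 lists the genes called in either fit are named. The values of 1 gene of these lists are not reported here. CDKN1A and the cell markers printed were chosen after their values were seen. The members, lists and settings were chosen with earlier results of these data known. The 24 alternatives were other scaling factors, DESeq2 1.42.0, limma 3.58.1 on log2 FPKM with a pseudocount of 1 or 0.1 (at least 0.5 FPKM in 3 libraries, or unfiltered), other count filters, length and GC trends, a replicate block, and each library left out.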

Additional observations from a re-analysis of the deposited data

How the results depend on the processing

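Of the 40 genes 5 fell with apigenin and 0 rose. The number that fell was 8 with no filter on low counts, 3 with the length trend removed, 1 with limma on log2(FPKM + 1) or log2(FPKM + 0.1), 0 with limma without a filter, and 0 to 12 when each library was left out (0 to 1 for those that rose). It was 4 with the replicate block, which lost FANCD2 (adjusted p = 0.0547) and RAD50 (0.0508) and added POLQ (0.0333), and 4 with length trend and replicate block together. With the length trend removed and each library but apigenin 3 left out (5 fits added after seeing the data) it was 1 to 7. Of the 89 further genes 2 fell and 2 rose. With limma 0 fell and 1 rose, with no filter 6 rose, with the replicate block 1 rose, and 0 to 7 fell and 0 to 10 rose with a library left out. With the length trend removed 3 rose, with the replicate block as well 5, and without apigenin 3 as well 1 fell and 5 rose. With libraries left out after removal of the length trend 0 to 2 fell and 2 to 6 rose. Over all genes the calls numbered 1060, 1518 with the length trend removed, 1736 with the replicate block as well, 1961 with no filter, 655 and 625 with limma (pseudocounts of 1 and 0.1), 138 with limma without a filter, 260 to 2890 with a library left out, and 685 to 1966 with a library left out and the length trend removed. None of the 5 called genes changed sign in any of the 24 alternatives, and 14 of the 35 uncalled did, none of them called with the other sign. The causes were not tested. Fits with a library left out have 5 libraries.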
